A study of Drosophila melanogaster with 15 samples.

Results

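The genes of the vacuolar H+-ATPase (V-ATPase) were followed through wing imaginal discs of Drosophila melanogaster in which the early endosomal syntaxin avalanche (avl, now Syx7) was knocked down. Every gene whose symbol begins with Vha was taken, which gave 31 of the 11982 genes with a named probe set on the array. The RefSeq gene table holds 33 such genes. Vha68-1 and Vha68-2, which encode forms of the catalytic subunit A, were not analysed here because no probe set carried their symbols. ATP6AP2, an accessory subunit formerly named VhaM8.9, falls outside the symbol rule and is given apart.

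Wing discs are folded epithelial sacs of the larva from which the adult wing and dorsal thorax develop, and they were taken from larvae of the third instar kept at 25 °C on a w1118 background. In the knockdown larvae, Rn-GAL4 drove a UAS construct for Avl RNAi, and the discs were labelled neoplastic. Control larvae carried Rn-GAL4 without that construct, and their discs were labelled wild type. Both genotypes also carried elav-GAL80, a GAL4 inhibitor under a neuronal promoter. The rotund driver is active in part of the disc, while RNA came from whole discs, so cells inside and outside the driver's domain were measured together. Controls were 92 or 116 h old, counted from egg deposition, and knockdown discs were 92, 116 or 168 h old. Each of these 5 groups had 3 separately collected samples, 1 array each, and no control discs of 168 h were part of the design. The knockdown itself was not read, because Syx7 had no named probe set. The UAS construct was present in every knockdown array and in no control array, so the effects of the knockdown and of the stock that carries it cannot be told apart.

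The V-ATPase is a rotary pump that uses ATP to move protons into endosomes, lysosomes and secretory vesicles, and in some epithelia out of the cell. Its cytosolic part, V1, holds the catalytic A and nucleotide-binding B subunits, a central shaft of D and F, peripheral stalks of E and G, and subunits C and H. Its membrane part, V0, holds a ring of proteolipid subunits c and c'', the a subunit that forms the proton path, the d subunit that joins the ring to the shaft, the small subunit e and accessory proteins. Several fly subunits have more than 1 gene, with forms used broadly and forms restricted to tissues such as testis. In wing discs, acidification of endosomes and lysosomes follows the same trafficking route on which avl acts, and the lysosomal pump is also part of the platform where TORC1 senses amino acids.

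The values were log2 expression values on a common scale, with a mean of 6.01 on every array. Arrays of 1 group correlated at 0.993 to 0.998, and arrays of different groups at 0.965 to 0.996. Wing disc markers were present: of 19 measured, 17 lay above the median gene level of 5.91, among them nub at 10.75, vg at 9.77, ap at 9.84 and bi at 10.90. The markers tup (5.59) and ct (5.28) lay below it. Transcripts of other tissues were also present and differed between arrays. The mean of 21 gut markers was 6.47 and 6.43 in control replicates 1 and 2 at 92 h but 4.92 in replicate 3, and 6.30 in control replicate 2 at 116 h but 4.87 and 4.77 in replicates 1 and 3. In knockdown discs it was 5.79 to 6.59 at 92 h, 5.03 to 5.15 at 116 h and 4.56 to 4.69 at 168 h. In bulk tissue, fewer cells of a type and less RNA per cell cannot be told apart.

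The 31 genes fell into a high and a low class. Over all arrays, 15 genes had a mean above 5.91, the median of all genes, and these 15 exceeded the median of every single array. They comprised one or more forms of every subunit that was measured except A: Vha55 (B), Vha44 (C), Vha36-1 (D), Vha26 (E), Vha14-1 (F), Vha13 (G), VhaSFD (H), Vha100-1 and Vha100-2 (a), Vha16-1 (c), VhaPPA1-1 (c''), VhaAC39-1 (d), VhaM9.7-b and VhaM9.7-c (e) and the accessory VhaAC45. The other 16 had means from 3.72 to 5.63 and were Vha68-3, Vha36-2, Vha36-3, Vha14-2, Vha100-3, Vha100-4, Vha100-5, Vha16-2, Vha16-3, Vha16-4, Vha16-5, VhaPPA1-2, VhaAC39-2, VhaM9.7-a, VhaM9.7-d and VhaAC45RP. The median of an array, taken over all its probe sets, was 4.74 to 4.79, below the gene median of 5.91. Of the 16 low genes, VhaAC45RP alone exceeded this array median on all 15 arrays. Levels are given per gene and are not compared between genes, since probe sets differ in response.

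Transcripts of the 15 high genes varied little between groups. The distance from the lowest to the highest of the 5 group means was 0.06 to 0.59 log2 units, with a median of 0.22, against a median of 0.42 for the 5991 genes above the median level. For 13 of the 15 the range was below that median of 0.42, and Vha100-2 (0.54) and VhaM9.7-c (0.59) were the exceptions. The narrowest ranges belonged to VhaM9.7-b at 0.06, VhaAC45 at 0.10 and VhaPPA1-1 at 0.12, which correspond to 1.04-, 1.07- and 1.09-fold. Among the 3876 genes at or above 8.01, the lowest mean of the 15, the median range was 0.40, and 13 of the 15 were below it. Among genes with a mean above 10, the median range was 0.39 for all 1091 and 0.18 for the 10 V-ATPase genes, each of which was below 0.39. That cut leaves out Vha100-2 and VhaM9.7-c, with means of 9.41 and 8.01. For 13 high subunit genes of the mitochondrial ATP synthase, a related rotary enzyme, the median was 0.51. These are descriptions, with no test of the family against other genes.

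**Figure D1:**
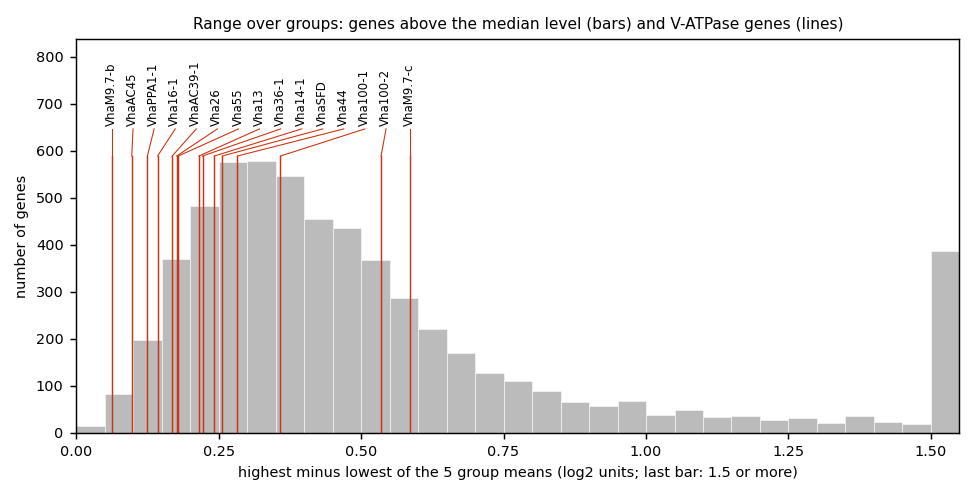
Histogram of the 5991 genes above the median level by the highest minus the lowest of the 5 group means, in log2 units, with the number of genes on the vertical axis and the last bar holding genes at 1.5 or more. Red lines mark the 15 V-ATPase genes, of which 13 lie below the median of 0.42, and Vha100-2 and VhaM9.7-c lie at 0.54 and 0.59.

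The comparison of knockdown with control discs at 92 h asks what had changed early in the disc with avl RNAi. Of the 31 genes, 2 were higher and 0 lower at adjusted p under 0.05 (limma, Benjamini-Hochberg over all 11982 genes), where 4.48% of all genes were called in either direction (2.44% higher, 2.04% lower). At unadjusted p under 0.05 there were 6 higher and 1 lower. The share of all genes at that unadjusted threshold is not given, here or below. Such counts are therefore not read as a trend of the family. The 2 called were VhaAC45RP and VhaSFD, the latter as 1 of the 15 high genes, against 6.94% of all genes above the median level. The median difference of the 15 high genes was -0.02, against 0.00 for all genes above the median level. For the 14 high genes that were not called, no 95% interval reached beyond 0.27 log2 units, or 1.21-fold, in either direction.

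At 116 h, when 31.7% of all genes were called in the same comparison, 5 of the 31 V-ATPase genes rose and 0 fell; 6 were higher and 0 lower at unadjusted p under 0.05. The 5 were VhaAC45RP, VhaSFD, VhaM9.7-c, Vha100-5 and Vha36-3. The count was 2 without control replicate 2 of 116 h (27.3% of all genes called) and 3 without control replicate 1 or 3 (28.4% and 27.4%). Over all genes, 12.6% rose and 19.1% fell. Among genes above the median level 52.1% were called, 19.2% higher and 32.9% lower, while 2 of the 15 high V-ATPase genes were called, both higher. The median size of the difference, without its sign, was 0.06 for the 15 genes and 0.20 for all 5991. Intervals for the 13 uncalled high genes stayed within 0.26 log2 units, or 1.20-fold. No V-ATPase gene differed 2-fold or more, which 3.91% of all genes did with a call.

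**Figure D2:**
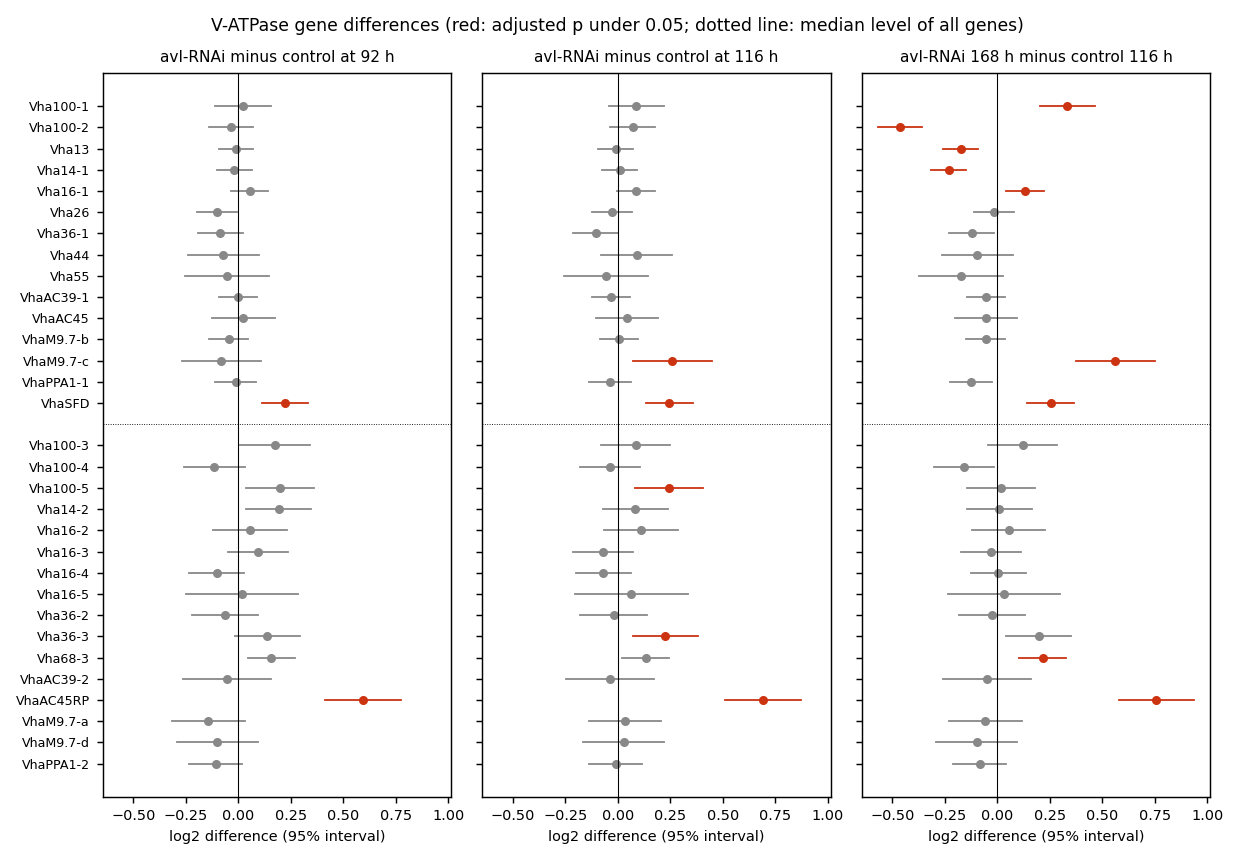
Differences of the 31 V-ATPase genes between avl-RNAi and control discs at 92 h, at 116 h, and between avl-RNAi discs of 168 h and control discs of 116 h, in log2 units with 95% intervals and 3 arrays per group. Red marks adjusted p under 0.05, and the dotted line separates the 15 high genes above it from the 16 low genes. The called genes are 2, 5 and 9 in number, and every difference is smaller than 1 log2 unit.

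Among V1 genes, VhaSFD was the one called at both ages. It encodes subunit H, whose yeast counterpart is needed for pumping and restrains ATP hydrolysis when V1 is detached. In control discs the 3 arrays read 10.28, 10.21 and 10.24 at 92 h and 10.18, 10.25 and 10.31 at 116 h. Knockdown arrays read 10.47, 10.43 and 10.51 at 92 h, then 10.53, 10.54 and 10.40 at 116 h, and finally 10.50, 10.54 and 10.46 at 168 h. All 9 knockdown arrays were above all 6 control arrays. The difference was 0.22 ± 0.05 log2 units (SE, n = 3 against 3; 1.17-fold; adjusted p = 0.025) at 92 h and 0.25 ± 0.05 (1.19-fold; adjusted p = 0.00208) at 116 h. The call at 92 h was lost when any 1 of 5 of its 6 arrays was left out, with adjusted p between 0.0551 and 0.0927. It was also lost in a fit to the compared groups alone (adjusted p = 0.0616).

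The other high V1 genes gave no call in either age-matched comparison. Vha55 encodes the nucleotide-binding subunit B. Its control arrays read 10.45, 10.41 and 10.53 at 92 h and 10.37, 10.51 and 10.48 at 116 h, and knockdown arrays read 10.43, 10.45 and 10.34 and then 10.38, 10.47 and 10.34. The groups overlapped at both ages, and at 116 h the difference was -0.06 (95% interval -0.26 to 0.15; adjusted p = 0.725). Vha44 encodes subunit C, which in yeast leaves the complex when V1 and V0 separate. It read 9.34, 9.18 and 9.12 in control and 9.27, 9.09 and 9.07 in knockdown discs at 92 h, and 8.99, 9.10 and 9.00 against 9.03, 9.16 and 9.16 at 116 h. These groups overlapped too, with a difference of 0.09 at 116 h (95% interval -0.08 to 0.26). Vha26 of the stalk was at -0.10 at 92 h with unadjusted p = 0.0363. Vha36-1 of the shaft was at -0.10 ± 0.05 at 116 h with unadjusted p = 0.0562. Knockdown arrays lay below all control arrays of the same age for Vha26 at 92 h and for Vha36-1 at both ages. Without knockdown replicate 1 of 116 h the Vha36-1 difference at that age was -0.15, with adjusted p = 0.0311.

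In V0, the small subunit e gene VhaM9.7-c rose at 116 h. Control arrays read 7.90, 7.94 and 7.85 at 92 h and 7.67, 7.88 and 7.96 at 116 h, and knockdown arrays 7.81, 7.85 and 7.79 and then 8.31, 8.05 and 7.94. The groups at 116 h overlapped by 1 array on either side. The difference was 0.26 ± 0.09 (1.20-fold; adjusted p = 0.0365) at 116 h and -0.08 (adjusted p = 0.724) at 92 h. Leaving out knockdown replicate 1 or control replicate 1 or 2 at 116 h ended the call, with adjusted p of 0.166, 0.164 and 0.0572, and so did fitting the compared groups alone (0.162). VhaM9.7-b, the other high e gene, differed by 0.00 (95% interval -0.09 to 0.10).

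The a subunits Vha100-1 and Vha100-2 were not called between genotypes of the same age. Vha100-1, a form known for its role at synapses of the fly nervous system, read 8.72, 8.62 and 8.62 in control and 8.75, 8.68 and 8.59 in knockdown discs at 92 h. At 116 h it read 8.73, 8.59 and 8.71 against 8.82, 8.66 and 8.83, and the groups overlapped at both ages. Vha100-2 read 9.42, 9.36 and 9.34 in control and 9.40, 9.32 and 9.30 in knockdown discs at 92 h, and 9.57, 9.54 and 9.62 against 9.66, 9.57 and 9.72 at 116 h. Its differences were -0.03 and 0.07 (adjusted p = 0.81 and 0.33). The proteolipid Vha16-1 read 12.34, 12.39 and 12.38 in control and 12.41, 12.45 and 12.41 in knockdown discs at 92 h, and 12.41, 12.36 and 12.38 against 12.40, 12.50 and 12.50 at 116 h. Its difference at 116 h was 0.09 (adjusted p = 0.146), and a second probe set of the gene gave 0.17. The difference was called after quantile normalization (0.15; adjusted p = 0.0143), with the mean of both probe sets (0.13; 0.0407) and without knockdown replicate 1 of 116 h (0.12; 0.0495). The d subunit VhaAC39-1, the c'' subunit VhaPPA1-1 and the accessory VhaAC45 differed by -0.03, -0.04 and 0.04 at 116 h, none of them called.

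The largest genotype difference in the family was in VhaAC45RP, a gene named for its relation to the accessory subunit AC45. Its control arrays read 5.28, 5.18 and 5.18 at 92 h and 5.29, 5.17 and 5.23 at 116 h. Knockdown arrays read 5.74, 5.79 and 5.89 at 92 h, then 5.96, 5.78 and 6.03 at 116 h, and 5.85, 5.93 and 6.18 at 168 h. All 9 knockdown arrays lay above all 6 control arrays. The gene was higher by 0.59 ± 0.08 (1.51-fold; 95% interval 0.41 to 0.77; adjusted p = 0.000963) at 92 h and by 0.69 ± 0.08 (1.62-fold; 0.51 to 0.87; adjusted p = 2.49e-05) at 116 h. Both calls held in each of the 25 alternatives that tested the gene. Its mean of 5.63 was below the median gene level, and a log2 difference understates the change if part of the signal is background.

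**Figure D3:**
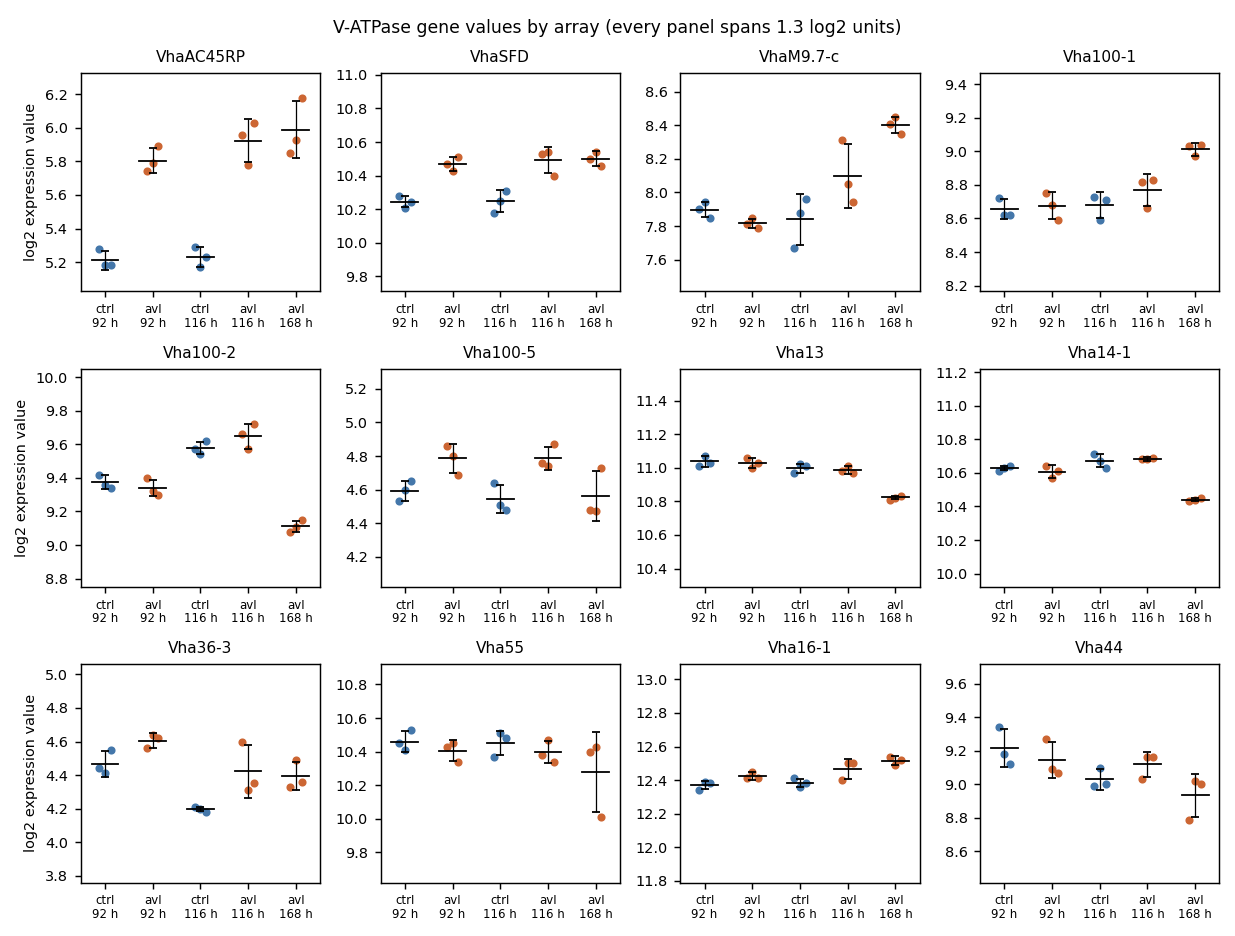
Log2 expression value of 12 V-ATPase genes on every array, by group, with horizontal bars at the group mean and error bars of 1 SD (n = 3); blue is control, orange avl-RNAi, and every panel spans 1.3 log2 units. VhaAC45RP and VhaSFD are higher on all 9 knockdown arrays than on the 6 control arrays, and Vha100-2, Vha13 and Vha14-1 are lowest at 168 h.

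Whether the genotype difference itself changed between 92 and 116 h was tested as an interaction. For the V-ATPase genes 0 of 31 were called by limma, with 1 at unadjusted p under 0.05, against 18.2% called of all genes and 29.8% of those above the median level. The median interaction of the 15 high genes was 0.03, against -0.07 for all genes above the median. The 1 gene at unadjusted p under 0.05 was VhaM9.7-c, at 0.34 (adjusted p = 0.0771); it was called after quantile normalization (0.0497), without the lowest 50% of genes (0.0433) and without knockdown replicate 3 at 116 h (0.0256). Without knockdown replicate 2 of 116 h, the low e gene VhaM9.7-a was called, at 0.28 (adjusted p = 0.0366). For VhaAC45RP the interaction was 0.10 (95% interval -0.16 to 0.35; adjusted p = 0.645) and for VhaSFD 0.02 (adjusted p = 0.88). The 95% interval of the interaction among uncalled high genes reached 0.61, or 1.52-fold, for VhaM9.7-c, and was within 1.5-fold for the other 14.

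From 92 to 116 h, 27% of all genes were called in control discs (13.2% higher, 13.8% lower) and 35.4% in knockdown discs (14.8% higher, 20.6% lower). In each genotype 3 of the 31 V-ATPase genes were called, 1 higher and 2 lower in control and 2 higher and 1 lower in knockdown discs. Of the 15 high genes these were 2 and 3, against 44.3% and 58% of all genes above the median level. Vha100-2 rose in both, by 0.20 ± 0.05 in control (1.15-fold; adjusted p = 0.0065) and by 0.31 ± 0.05 in knockdown discs (1.24-fold; adjusted p = 0.000226). Vha26, the stalk subunit E, fell by 0.15 in control discs (adjusted p = 0.0224), from 11.76 ± 0.03 to 11.61 ± 0.04 (SD, n = 3), a call lost without control replicate 2 or 3 of 92 h or control replicate 1 of 116 h (adjusted p = 0.0609, 0.0783 and 0.084). VhaAC39-1, the d subunit, fell by 0.14 in knockdown discs (adjusted p = 0.0157) and was at -0.11 in control discs (adjusted p = 0.0609); the first was lost without knockdown replicate 1 of 92 h (0.0612) or replicate 3 of 116 h (0.0672), and the second was called without control replicate 3 of 92 h (0.0442). VhaM9.7-c rose by 0.28 ± 0.09 in knockdown discs (adjusted p = 0.0211), a call lost without replicate 1 or 3 of 92 h (0.0523 and 0.0585) or replicate 1 of 116 h (0.095). The low gene Vha36-3 fell by 0.27 in control discs (adjusted p = 0.0121; 0.0572 without control replicate 3 of 92 h). ATP6AP2 rose with age in both, by 0.22 ± 0.05 in control (adjusted p = 0.00599) and 0.20 ± 0.05 in knockdown discs (adjusted p = 0.00948), and was not called between genotypes at either age.

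Knockdown larvae were also sampled at 168 h, for which the design has no control of the same age, so age and genotype cannot be told apart there. Against knockdown discs of 116 h, 6 of the 31 genes were called, 2 higher and 4 lower, with 27% of all genes called (15.5% higher, 11.5% lower), and 5 of the 15 high genes, against 42.7% of all genes above the median level. Against control discs of 116 h, 9 were called, 6 higher and 3 lower, with 25.6% of all genes called (12% higher, 13.7% lower). The calls took in 7 of the 15 high genes, against 41.9% of all genes above the median level. The 2 comparisons share the 168 h arrays, and the second shares its control arrays with the comparison at 116 h. No V-ATPase gene differed 2-fold in either, which 3.08% and 2.45% of all genes did with a call.

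The 3 genes lower at 168 h than in both 116 h groups belonged to the proton path, the shaft and the stalk. Vha100-2 read 9.08, 9.11 and 9.15 at 168 h, below all 12 arrays of the other groups. It was lower by 0.54 ± 0.05 than in knockdown discs of 116 h (0.69-fold; adjusted p = 3.55e-06), and its difference from control discs of 116 h was -0.47 ± 0.05 (adjusted p = 1.13e-05). Vha14-1, subunit F, read 10.43, 10.44 and 10.45, against 10.68, 10.68 and 10.69 in knockdown and 10.71, 10.67 and 10.63 in control discs of 116 h. At 92 h it read 10.64, 10.57 and 10.61 in knockdown and 10.61, 10.63 and 10.64 in control discs, so the 168 h arrays were the lowest. Its differences were -0.24 (adjusted p = 0.000386) and -0.23 (adjusted p = 0.000501). Vha13, subunit G, read 10.81, 10.82 and 10.83, against 10.98, 11.01 and 10.97 in knockdown and 10.97, 11.02 and 11.01 in control discs of 116 h. Its differences were -0.17 (adjusted p = 0.0055) and -0.18 (adjusted p = 0.00374). The 168 h arrays again lay below those of every other group.

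Higher at 168 h were VhaM9.7-c, Vha100-1 and, against control alone, Vha16-1, VhaSFD, VhaAC45RP and Vha68-3. VhaM9.7-c read 8.41, 8.45 and 8.35, above the 12 arrays of the other groups. It exceeded control discs of 116 h by 0.56 ± 0.09 (1.48-fold; adjusted p = 0.000309) and knockdown discs of 116 h by 0.30 (adjusted p = 0.0201). The second call was lost without knockdown replicate 2 or 3 of 116 h (0.059 and 0.0847) or replicate 1 or 2 of 168 h (0.056 and 0.0684). Vha100-1 read 9.03, 8.97 and 9.04, also above all other arrays, and exceeded the same groups by 0.33 ± 0.06 (1.26-fold; adjusted p = 0.00116) and 0.25 ± 0.06 (adjusted p = 0.00917). The 2 high genes for the a subunit had differences of opposite sign between 116 and 168 h in knockdown discs. With gut, muscle and fat body marker means as covariates the Vha100-1 difference was 0.04 (adjusted p = 0.987). VhaSFD and VhaAC45RP differed from control discs of 116 h by 0.25 and 0.76 (1.69-fold), and from knockdown discs of 116 h by less than the test could call. Vha16-1 read 12.54, 12.49 and 12.52, a difference of 0.13 ± 0.04 from control discs of 116 h (adjusted p = 0.0307) that was lost in 9 of 26 alternatives, among them without replicate 1 or 3 of 168 h (0.0978 and 0.0771) and without control replicate 2 or 3 of 116 h (0.0961 and 0.0763). Vha55 read 10.40, 10.43 and 10.01, with replicate 3 below all others of the gene, and Vha44 read 8.79, 9.02 and 9.00; neither was called against control discs (Vha55 -0.17, adjusted p = 0.21; Vha44 -0.10).

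Of the 16 low genes, VhaAC45RP is described above, and 12 were called in none of the 7 comparisons. Vha100-5, an a subunit gene, read 4.64, 4.51 and 4.48 in control and 4.76, 4.74 and 4.87 in knockdown discs at 116 h, groups that did not overlap, a difference of 0.24 ± 0.08 (adjusted p = 0.023). That call was lost without knockdown replicate 3 (0.0853) or control replicate 2 or 3 of 116 h (0.0727 and 0.0857). At 92 h it read 4.53, 4.60 and 4.65 in control and 4.86, 4.80 and 4.69 in knockdown discs, and at 168 h 4.48, 4.47 and 4.73, which was -0.22 from 116 h (adjusted p = 0.0403, lost in 15 of 25 alternatives). Vha36-3, a form of subunit D, read 4.21, 4.20 and 4.18 in control and 4.60, 4.31 and 4.35 in knockdown discs at 116 h (0.23 ± 0.07; adjusted p = 0.0281). This was lost in 7 of 25 alternatives, among them without knockdown replicate 1 of 116 h (0.13; adjusted p = 0.12) and without any 1 of the 3 control arrays of 116 h (adjusted p 0.0582 to 0.074). With gut, muscle and fat body marker means as covariates it was 0.02 (adjusted p = 0.958). The same gene read 4.44, 4.41 and 4.55 in control and 4.56, 4.64 and 4.62 in knockdown discs at 92 h, and 4.33, 4.49 and 4.36 at 168 h. Vha68-3, the A subunit form that was measured, had a mean of 3.72 and exceeded control discs of 116 h by 0.22 ± 0.05 at 168 h (1.16-fold; adjusted p = 0.00654). Between genotypes it was uncalled but higher at 92 h (0.16; adjusted p = 0.115) and 116 h (0.13; 0.0669), with no overlap of groups. Without knockdown replicate 3 of 116 h the second was called (0.17; 0.0288). From 116 to 168 h the gene moved by 0.08 in knockdown discs (adjusted p = 0.266). Over all genes, control and knockdown groups did not overlap in 24% at 92 h and 40.5% at 116 h. Of the 31 V-ATPase genes this held for 14 and 6, in both directions. A lack of overlap alone is therefore not read as a difference. At the levels of these low genes background makes up an unknown part of the signal, and whether the discs express these forms was not tested.

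Genes that work with the pump were described from 3 further lists, and mitochondrial ATP synthase genes from another. Of 18 measured genes of V-ATPase assembly, its regulation and lysosomal TORC1 signalling, 3 were higher and 1 lower at 92 h, and 4 higher and 5 lower at 116 h, with a median difference of 0.00. Of all genes, 2.44% were called higher and 2.04% lower at 92 h, and 12.6% and 19.1% at 116 h. The 4 with the smallest adjusted p at 116 h were Lamtor5, a Ragulator subunit, at 0.46 ± 0.05 (adjusted p = 4.14e-06), path, which encodes an amino acid transporter, at -1.29 ± 0.13 (6.1e-06), the sestrin Sesn at 0.51 ± 0.07 (6e-05) and Lamtor4 at -0.24 ± 0.05 (0.00139). The sign of path was opposite at 168 h, where it was 3.84-fold higher than in control discs of 116 h (adjusted p = 2.01e-07). Of 26 lysosomal enzyme and membrane protein genes, 3 rose and 0 fell at 92 h, and 5 rose and 4 fell at 116 h, beside 31.7% of all genes called at that age. Cln7, a lysosomal membrane protein gene, fell by 1.38 ± 0.10 (1.69e-07), Npc2a, for a sterol carrier of the lysosome lumen, rose by 0.68 ± 0.06 (2.3e-06), CtsL1, a cathepsin gene, rose by 0.44 ± 0.06 (0.000101), and the thioesterase gene Ppt2 fell by 0.20 ± 0.05 (0.00571). With age from 92 to 116 h, 12 of the 26 rose and 4 fell in each genotype, where 13.2% of all genes rose and 13.8% fell in control discs and 14.8% and 20.6% in knockdown discs.

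Of 17 measured genes of lysosome fusion and endosome maturation, 0 were called at 92 h by limma, with 3 at unadjusted p under 0.05, and 4 rose and 7 fell at 116 h. Of all genes 4.48% were called at 92 h, and 12.6% rose and 19.1% fell at 116 h. Rep, the Rab escort protein gene, rose by 0.71 ± 0.05 (adjusted p = 3.07e-07), and the SNARE gene Snap29 fell by 0.63 ± 0.09 (7.4e-05). Ccz1 and Mon1, whose products together activate Rab7 on maturing endosomes, fell by 0.32 ± 0.06 (0.000916) and 0.27 ± 0.05 (0.00103). Of 16 mitochondrial ATP synthase genes, 1 rose and 6 fell at 116 h (median -0.12), among them ATPsynbeta at -0.32 ± 0.06 (0.000883), ATPsynD at -0.22 ± 0.04 (0.00151) and ATPsynCF6 at -0.21 ± 0.05 (0.00308), while ATPsynepsilonL rose by 0.42 ± 0.09 (0.00206). From 92 to 116 h, 11 of the 16 fell in control and 13 in knockdown discs, with medians of -0.23 and -0.44, where 13.8% and 20.6% of all genes fell. The median of the 15 high V-ATPase genes in those comparisons was 0.00 and 0.04.

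Some V-ATPase genes are strongly used in gut and Malpighian tubule, so marker levels of other tissues are set beside the results. The mean of the 15 high genes moved between 10.17 and 10.26 over the 15 arrays, while the gut marker mean moved between 4.56 and 6.59. A mean of 15 genes can hide opposite moves, such as Vha100-2 (-0.54) and Vha100-1 (0.25) from 116 to 168 h in knockdown discs. Whether single genes follow gut tissue was not tested by it. Of the 12 Malpighian tubule markers measured (16 listed), 3 lay above the median gene level, and their mean stayed between 5.28 and 5.53. Muscle markers, 13 of 18 measured, had means of 7.86 to 8.23 in control and 8.44 to 8.82 in knockdown discs at 92 h, of 6.63 to 7.29 and 7.57 to 8.04 at 116 h, and of 6.12 to 6.39 at 168 h. Of these 13, 10 were called higher in knockdown discs at 116 h, where 12.6% of all genes were called higher. At 92 h 0 of the 13 were called by limma, against 4.48% of all genes. There 10 had unadjusted p under 0.05, with a median difference of 0.65, and the share of all genes at that threshold is not given. Fat body markers, 5 of 10 measured, ranged from 7.47 to 8.27 at 168 h and from 7.63 to 10.15 in the other groups. Wing disc markers differed too. Of 19 measured, 13 were called lower and 0 higher in knockdown discs at 116 h (median -0.41), where 19.1% of all genes were called lower. At 92 h 1 was lower and 0 higher. From 92 to 116 h in control discs 11 rose and 0 fell, where 13.2% of all genes rose. At 92 h and at 116 h no control array reached the muscle level of the knockdown arrays, so muscle transcripts and genotype moved together at both ages. The same held for the haemocyte mean at 92 h and for the tracheal mean at 116 h, among arrays of the same age.

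With control replicate 3 of 92 h and control replicate 2 of 116 h, which stood apart in gut markers, both left out, VhaAC45RP was still called at 92 h and 116 h, and VhaSFD was called at 116 h but not at 92 h (adjusted p = 0.119). VhaM9.7-c lost its call at 116 h (0.0711). With the gut, muscle and fat body means as covariates, VhaAC45RP was still called at both ages, and VhaSFD was not, at 0.24 (adjusted p = 0.246) and 0.28 (0.2), differences no smaller than without covariates. In the same fit, at 168 h Vha100-2 differed from knockdown discs of 116 h by -0.73 with adjusted p = 0.114. In that fit the median standard error of the 15 genes was 0.16 for 168 against 116 h, compared with 0.05 without covariates. Vha100-1 at 168 h differed by 0.04 (adjusted p = 0.987) from knockdown and by 0.24 (0.233) from control discs of 116 h, and the rise of Vha100-2 with age in control discs was 0.10 (0.746). The fall of Vha36-3 with age in control discs was at -0.07 (0.889). Of all 28 calls of V-ATPase genes in the 7 comparisons, 22 were lost with these covariates. The 6 that held were VhaAC45RP at each age and, at 168 h against control discs of 116 h, Vha100-2, VhaM9.7-c and Vha68-3. Calls were lost over the whole array in that fit. At 116 h 7.78% of all genes were called between genotypes, against 31.7% without covariates. For 168 against 116 h the shares were 0.401% and 27%.

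**Figure D4:**
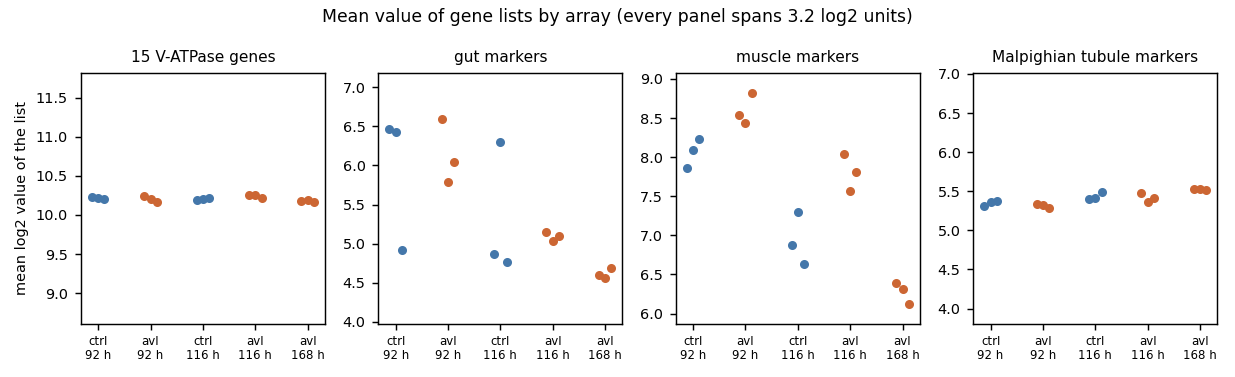
Mean log2 value on each array of the 15 high V-ATPase genes and of gut, muscle and Malpighian tubule markers, by group, with blue for control and orange for avl-RNAi and 3.2 log2 units in every panel. The V-ATPase mean stays between 10.17 and 10.26, while the gut mean spans 4.56 to 6.59.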

How the data were processed

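Total RNA of the discs was labelled with biotin and hybridized to Affymetrix arrays, per the labels. Log2 values of 18952 probe sets were deposited, normalized between arrays by the authors; the log base was inferred from the values. The submitters' processing notes name Partek and limma, and the method of background correction and normalization is not given in the sources used here. Of the probe sets, 13647 had 1 gene symbol, 402 several and 4903 none; symbols were updated through gene identifiers. For each of 11982 genes, the probe set that averaged highest over the 15 arrays was used, and Vha16-1 had a second one. No genome build was named, so no positions are given.

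All genes were fitted with lmFit and eBayes of limma 3.58.1 (R 4.3.3) on the 15 arrays, with 5 group means and 10 residual degrees of freedom. Tests were 2-sided, adjusted by the Benjamini-Hochberg method over all genes in each of 7 comparisons, and called at adjusted p under 0.05. Arrays give no read depth, and their number limits the precision. The labels call the replicates separate samples; what discs each held is not given, so p-values measure the spread between these samples. The script was tested on simulated data.

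The members, lists and tests were chosen with earlier results of these data known. Values on every array were given for genes called between genotypes at 92 h, at 116 h or in the interaction, and for Vha55, Vha16-1, Vha100-1, Vha100-2, Vha44 and VhaSFD, and also, chosen after their values were seen, for Vha13 and Vha14-1. From each pathway list the 4 members with the smallest adjusted p at 116 h were named. The numbering was not used as a pairing: deviations of arrays with equal numbers in 2 groups correlated at over 0.1 in 9 of 30 cases (range -0.41 to 0.50). Alternatives were the compared groups alone, the replicate block, another prior, 2 other normalizations, 2 filters on low genes, averaged probe sets, a stricter threshold, arrays left out and tissue marker means as covariates.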

Additional observations from a re-analysis of the deposited data

How the results depend on the processing

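Of the 31 genes in the 7 comparisons, 28 differences were called. Over 719 recomputed values of these, 90 were no longer called, 22 of them with gut, muscle and fat body means as covariates, and 0 of the 28 changed sign. The stricter threshold is not among these values, nor among the alternatives counted for single genes above. Many of the alternatives cannot move a difference, only its p-value. These are the compared groups alone, the replicate block, the other prior, the gene filters and an array left out of a group not compared. A kept sign shows nothing there. Another 18 differences were called in 1 or more alternatives, 36 times in all, and signs of uncalled differences near 0 turned in some alternatives. The median difference of the 15 high genes moved by more than the spread within groups in 1 of 175 cases: from 92 to 116 h in knockdown discs it was 0.11 after quantile normalization against 0.04, while the median of all genes above the median level moved from -0.06 to -0.04. Counts of called V-ATPase genes moved more. With the compared groups alone they were 1 (of 2) at 92 h, 3 (of 5) at 116 h, 1 (of 3) for knockdown discs from 92 to 116 h and 3 (of 6) for 168 against 116 h. In these fits 2.88%, 24.3%, 26.8% and 20.5% of all genes were called. Without the lowest 50% of genes, where the low V-ATPase genes are not tested, V-ATPase counts were 1 at 92 h, 2 at 116 h and 1 in the interaction. Of the genes tested there, 9.25%, 58.1% and 36.8% were called. Quantile normalization gave 1 V-ATPase call in the interaction and 6 for knockdown discs from 92 to 116 h. It called 17% and 34.6% of all genes. At adjusted p under 0.01 V-ATPase counts were 1 at 92 h, 2 at 116 h, and 1 (of 3) with age in each genotype. That threshold called 1.88% and 22.9% of all genes at 92 and 116 h, and 18.7% and 26.3% with age in control and knockdown discs. Without the 2 control arrays that differed in gut markers, V-ATPase counts were 1 at 92 h, 2 at 116 h and 1 for control discs from 92 to 116 h. Shares of all genes called were then 2.14%, 25.8% and 20.8%. With gut, muscle and fat body means as covariates, limma called 1 V-ATPase gene at 92 h, 1 at 116 h, 0 with age in either genotype, 0 for 168 against 116 h and 4 (of 9) for 168 h against control. Calls over all genes also fell in that fit, to 1.24% at 92 h and 7.78% at 116 h. They were 3.54% and 18.4% with age in control and knockdown discs, 0.401% for 168 against 116 h and 9.03% for 168 h against control. Without covariates these shares were 4.48%, 31.7%, 27%, 35.4%, 27% and 25.6%. At unadjusted p under 0.05 the 3 zeros stood at 4 in control, 1 in knockdown and 5 for 168 against 116 h; the median standard error of the 15 high genes was 0.11, 0.09 and 0.16 there, against 0.05 without covariates. Some differences were smaller in that fit and others larger. For none of the changes of count was the cause tested. Leaving out 1 array at a time gave 1 to 2 calls at 92 h, 2 to 5 at 116 h, 0 to 1 in the interaction, 2 to 4 with age in control and 1 to 4 in knockdown discs, 4 to 6 for 168 against 116 h and 8 to 10 for 168 h against control. The share of all genes called then was 2.4% to 5.07% at 92 h and 26.9% to 31.5% at 116 h. It was 14.5% to 19.3% in the interaction, and with age 21.7% to 28.1% in control and 31.2% to 35.1% in knockdown discs. For 168 h it was 21.1% to 27.3% against knockdown and 20.9% to 26.6% against control discs of 116 h. The replicate block gave 2 calls at 92 h and 4 at 116 h, where VhaM9.7-c had adjusted p = 0.0522, and 5 and 8 in the comparisons at 168 h, where Vha100-5 (0.0539) and Vha16-1 (0.0507) were lost. With the block 4.07% and 31.1% of all genes were called at 92 and 116 h, and 26.5% and 24.9% in the comparisons at 168 h. The number of arrays and the background at low levels limit what the 16 low genes can show.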

Other observations

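Genes of the lysosome and of its amino acid transport also changed with age. In knockdown discs between 116 and 168 h, 9 of 26 lysosomal enzyme and membrane protein genes rose and 3 fell, where 15.5% of all genes rose and 11.5% fell, and Cln7 was higher by 1.07 ± 0.10 log2 units (SE; limma adjusted p = 3.97e-06). In control discs Cln7 had risen by 1.22 ± 0.10 from 92 to 116 h (adjusted p = 9.22e-07), while in knockdown discs it fell by 0.38 over the same interval (adjusted p = 0.00759). The interaction of genotype and age for this gene was -1.61 ± 0.14 (adjusted p = 3.55e-06). The amino acid transporter gene path rose by 3.23 ± 0.13 between 116 and 168 h in knockdown discs (adjusted p = 4.02e-09), after falling by 0.46 from 92 to 116 h (adjusted p = 0.0157). No age-matched control exists at 168 h, and what underlies these values was not tested.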
